A study of Mus musculus with 158 samples.

Results

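Astrocytes cultured from mouse cortex were described cell by cell. They comprised every sample whose labels give the cell type astrocyte, 86 of the 158 samples of the series, and each sample is the RNA of 1 cell drawn up with a patch pipette. The other samples are neurons, from acute slices or from culture, and are not described here. The astrocytes came from primary cultures of cortex, were given no treatment, and differed in time in culture: 70 cells were kept for 12 days, 8 for 15, 5 for 14 and 3 for 7. The 7-day cells carry the strain label C57/BL6 and all others C57/BL6/N, with no genotype or sex given. Before sequencing, 3 rounds of aRNA amplification (linear copying into antisense RNA) multiplied each cell's transcripts, per the series' design text. No label names an animal or a culture, so cells are not replicates of a condition, the 86 cells count as 1 sample, and no test was made. All values below describe the spread between these cells.

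Astrocytes are glial cells that take up glutamate and potassium released by neurons, supply metabolites, and are coupled to each other through gap junctions. In culture they are grown from the dividing glial precursors of the young brain, so that such cultures are known to hold proliferating and immature cells beside mature ones. The intermediate filament proteins vimentin (Vim) and GFAP (Gfap) mark them at different stages, vimentin from the precursor onwards and GFAP in mature and in reactive astrocytes.

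The shallowest cell held 1089796 counts in genes, the median cell 15369200 and the deepest 38680700. To compare cells at equal depth, each was thinned at random to 1000000 counts, and a gene was taken as detected in a cell with at least 5 of those counts. The number of genes detected per cell then ran from 1303 to 8925 with a median of 4929 (quartiles 3730.5 and 6759.5). In the median cell 18.2% of counts fell on its top 50 genes, and in 5 cells over 30% did. Cells 73 and 48 stood apart, cell 73 at 65.5% with 1303 genes detected and cell 48 at 64.8% with 1499. Levels are given as counts per 1000000 counts of the whole library (CPM), in the lowest, median and highest cell. Because reads here carry no molecular identifiers and cannot be taken as separate molecules, the Clopper-Pearson 95% intervals of shares of cells, and the limit set by 3 cells where a gene was found in none, cover counting error only.

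The label was first compared with the markers of the cell type. Vim was detected in 86 of 86 cells (95.8 to 100%), at 328 CPM in the lowest cell, 5503 CPM in the median cell and 19451 CPM in the highest. The transcription factor gene Id3 was detected in 83 cells, and the glutamate transporter gene Slc1a3 and the glial transcription factor gene Sox9 in 79 cells each (83.9 to 96.7%). The other 4 markers were found in fewer cells. Mlc1, a membrane protein of astrocyte endfeet, was detected in 75 cells, the gap junction gene Gja1 in 68, the water channel gene Aqp4 in 53 and Gfap in 42 of 86 (37.9 to 59.9%). Slc1a3 lay at 0.25, 698 and 6546 CPM in the lowest, median and highest cell, and Gfap at 0, 4.19 and 1845 CPM. All 8 markers were detected together in 33 cells (38.4%, 28.1 to 49.5%), and 5 cells had at most 3 of them (cells 27, 48, 71, 82 and 86, with 1499 to 3056 genes detected). A larger share of the 20 astrocyte genes than of the 20 neuron genes listed was detected in 83 cells, and the shares were equal in 3. By summed thinned counts, however, the neuron genes exceeded the astrocyte genes in 11 of 86 cells (cells 4, 22, 23, 27, 33, 35, 41, 48, 53, 66 and 81). In cell 4 the sums were 6225 and 2506, with 3568 counts of Stmn2 and 2436 of the non-coding RNA Meg3, and in cell 22 they were 4242 and 869, with 3821 of Stmn2. Stmn2 was the highest of the 20 neuron genes in 8 of the 11 cells.

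**Figure D1:**
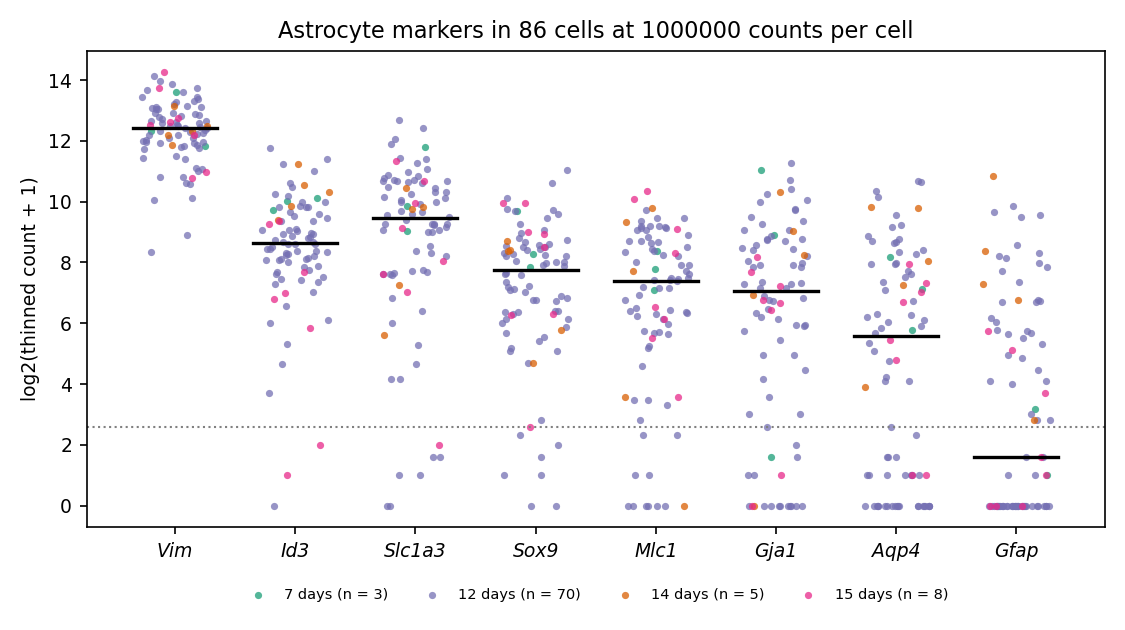
Counts of the 8 markers in each of the 86 cells after thinning to 1000000 counts, as log2(thinned count + 1); each point is a cell, colour gives the days in culture, black lines are medians over all cells, and the dotted line is the detection limit of 5 counts. Vim lies above the limit in all 86 cells, whereas Aqp4 and Gfap have many cells at 0.

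Genes that define other cell types were mostly low. Of the neuron genes, Snap25 and Rbfox3 were detected in 0 of 86 cells, which allows a share of up to 3.49%, while Stmn2, which encodes a tubulin-binding protein of growing neurites, was detected in 62 and the microtubule protein gene Map2 in 58. Over the 20 neuron genes the thinned counts of a cell summed to 0 at the lowest, 632 in the median and 6225 at the highest, against 23, 3929.5 and 24722 for the 20 astrocyte genes. Mbp, Mog and 6 further genes of the 10 oligodendrocyte genes were detected in no cell, and so was Sox10, which defines the oligodendrocyte lineage. Of all 21282 rows with a count, 6536 were detected in no cell. Olig1, a transcription factor gene of that lineage that some astrocytes also use, was detected in 68 cells and Olig2 in 50. The endothelial genes Cldn5, Cdh5 and Pecam1 were detected in no cell, but Slco1a4, an organic anion transporter gene on the same list, was detected in 57. Of the 12 genes listed for fibroblasts and meninges, Tagln was in 84 cells and Thbs1 in 81, the transcription factor gene Foxc1 in 55, the collagen gene Col1a2 in 32, Dcn in 5 and Lum in 1. Tagln and Thbs1 also stand on the contractile and matrix lists below, and what part other cell types had in those values was not tested.

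Microglial genes separated a few libraries from the rest. At least 5 of 11 such genes were detected in 6 of 86 cells (6.98%, 2.6 to 14.6%), and at least 2 in 12 cells. Cell 17, of 15 days, held thinned counts of 4134 for the fractalkine receptor gene Cx3cr1, 2037 for Aif1 and 2661 for the cathepsin gene Ctss. These counts, with 3 for Slc1a3, 5 for Sox9 and 0 for Gfap, go against its label. Cell 17 also held 5818 for Vim, 85 for Gja1 and 11 for Mlc1, with 4 of the 8 markers detected. Its 20 astrocyte genes, 8 of them detected, summed to 4420, against 3929.5 in the median cell. Slc1a3, Sox9, Gja1, Gfap and Mlc1 made up little of that sum. Cell 86, of 12 days, held 3376 for Ctss and 563 for Tyrobp, with 0 for Slc1a3, Gja1, Aqp4, Gfap and Mlc1 but 82 for Sox9 and 3956 for Vim, and so stands apart from its label as well. Its 20 astrocyte genes, 4 of them detected, summed to 4704. In both cells a sum above the median thus stood beside low or absent markers. In the other 4 of the 6 cells (20, 29, 39 and 52) microglial genes stood beside Slc1a3 counts of 330 to 1642. All 6 cells remain in the values below. Without them the median number of genes detected per cell was again 4929, and 43 instead of 41 genes were detected in every cell. Xist, which is expressed from the inactive X chromosome, and genes of the Y chromosome also divided the cells, with Xist alone in 21 cells, Y genes alone in 48, neither in 10 and both in 7. Of those 7 cells, 4 were among the 5 cells of 14 days. With at least 1 count as the limit the numbers were 22, 39, 5 and 20, and of those 20 cells 13 were of 12 days and 5 of 14 days. The labels give no sex, and why a library held both was not tested.

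The most abundant transcripts had varied roles. Cpe, which encodes the peptide-processing carboxypeptidase E, had the highest median, at 5790 CPM, with 63 CPM in its lowest and 31917 CPM in its highest cell. Vim followed at 5503 CPM and the tubulin gene Tuba1a at 5241 CPM. The ribosomal RNA precursor Rn45s lay at a median of 4298 CPM, the ferritin heavy chain gene Fth1 at 3852 CPM and the nuclear non-coding RNA Malat1 at 3511 CPM. Next came Eef1a1, a translation elongation factor (3260 CPM), Anxa3, a phospholipid-binding annexin (3233), Slc25a4, the mitochondrial ATP/ADP carrier (3162), and Tmsb4x, the actin-binding thymosin beta 4 (3105). The other 5 of the 15 highest medians belonged to Rtn4, known as Nogo (2700), Atp5g3 of ATP synthase (2400), Rps4x of the ribosome (2298), Ckb, brain creatine kinase (2200), and Cst3, the protease inhibitor cystatin C (2110). Not all of them were present in every cell. Malat1 ran from 2.21 to 82922 CPM and Anxa3 from 0 to 41208 CPM.

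Levels of different genes were also compared per length. Whether counts rise with the length of merged exons in these amplified libraries was not tested. Per kilobase of merged exons in GENCODE vM21, Tuba1a was highest, at a median of 2907 CPM per kilobase, ahead of Tmsb4x at 2265, Cpe at 2219 and the ribosomal protein gene Rplp1 at 1957. Vim, whose merged exons span 4743 bases, dropped to 1160 CPM per kilobase and Malat1 to 503. The order of the abundant genes therefore differed between the scales, with Vim second by CPM and behind Tmsb4x, Cst3 (1667), Slc25a4 (1344) and Eef1a1 (1308) per length.

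Only 41 of the 21956 gene rows were detected in all 86 cells, 4 of them genes of ribosomal proteins. A further 65 were missing from 1 cell, which was cell 48 for 22 of them and cell 73 for 12. The cells with few genes set this number. Without the 4 cells under 2000 genes, 106 genes were detected in every remaining cell. Among the 41, Vim had the highest level in its lowest cell (328 CPM), ahead of the actin gene Actb (234 CPM), Fth1 (228 CPM) and Tuba1a (149 CPM). Sparc, a secreted matrix-binding glycoprotein gene, had 128 CPM in its lowest cell, Eef1a1 123, Rn45s 92.1, Cst3 77.3, Pea15a, a death effector domain protein gene abundant in astrocytes, 69.5, and Cpe 63. At least 90% of cells shared 536 genes, and at least 50% shared 4733. By contrast 7210 rows were detected in no cell, and 4370 in at least 1 but under 10% of cells.

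Among the genes detected in at least 90% of cells, 527 of them with names other than predicted ones, the spread over cells was wide. The SD of log2(thinned count + 1) over the cells had a median of 2.22 and was at most 3.15, and the count at the 90th percentile of cells was a median of 28.4 times the count at the 10th. Among the narrowest spreads were those of Actb (log2 SD 1.05, with 234, 1749 and 15868 CPM in the lowest, median and highest cell) and Vim (1.07). Sparc (1.11), the chaperone gene Hspa8 (1.15) and Rpl11 of the ribosome (1.18) followed. The count of Hspa8 at the 90th percentile of cells was 3.49 times that at the 10th. The widest spread belonged to the imprinted gene Mest (log2 SD 3.15, with 0, 251 and 6978 CPM in the lowest, median and highest cell), Limch1 (3.12), the small GTPase gene Rap1b (3.09) and the inositol transporter gene Slc5a3 (3.08). For Mest the count at the 90th percentile was 346 times that at the 10th. Its wide spread came with presence in most cells, since it was detected in 78 of 86.

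**Figure D2:**
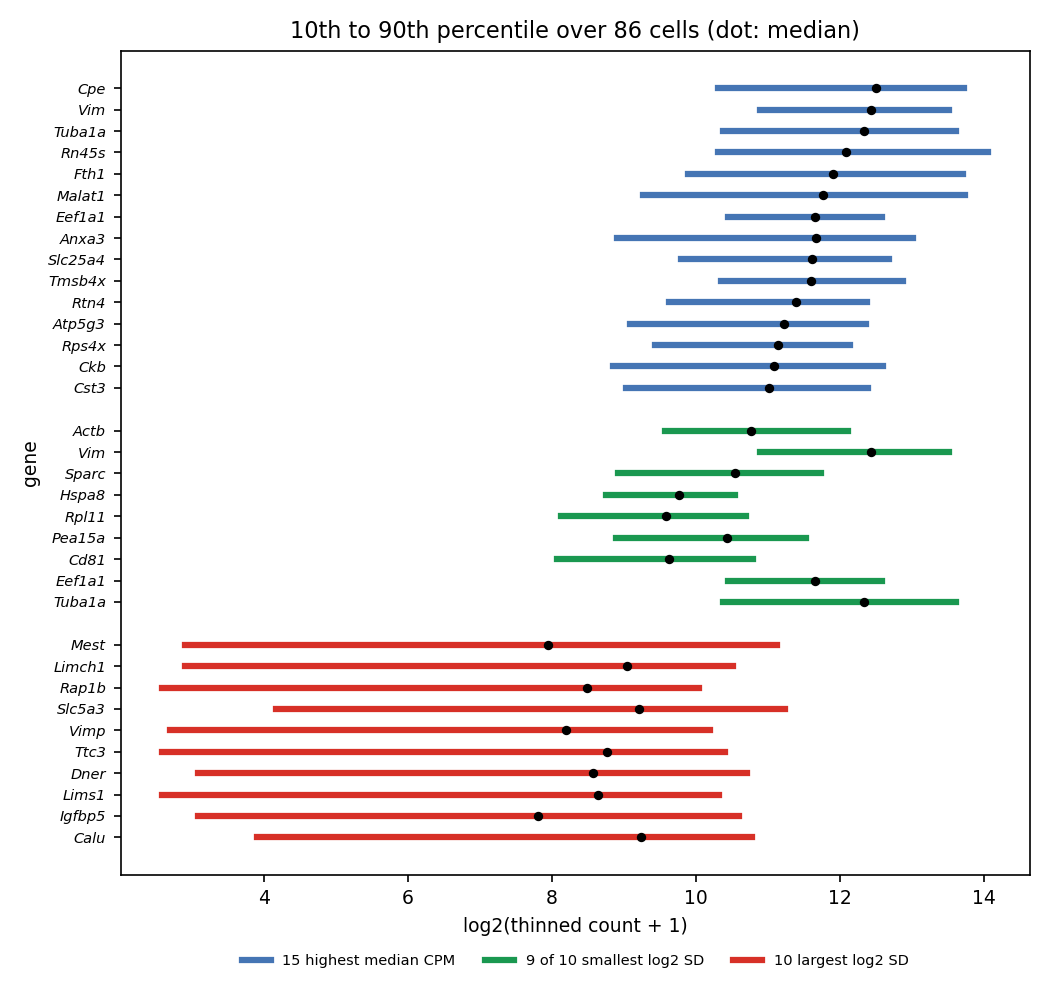
Range from the 10th to the 90th percentile of cells (bars) and the median (dots) of log2(thinned count + 1) over 86 cells, for the 15 genes of highest median CPM and for 9 of the 10 genes of smallest and the 10 of largest log2 SD among genes detected in at least 90% of cells. The genes of largest SD, such as Mest, have 10th percentiles below all those of the other genes shown.

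A gene was counted as on in a cell with at least 50 thinned counts and off with 0, and as switched between cells when at least 20% of cells were on, at least 20% off and at most 20% between, with 1 to 49 counts. Under this rule 29 genes were on in some astrocytes and off in others, 2 of them with predicted names. Several were genes of cell division. Pbk, a mitotic kinase gene (chromosome 14, 65805837 to 65817822 in GRCm38), was on in 19 cells, off in 58 and between in 9. Fbxo5, an inhibitor of the ubiquitin ligase that ends mitosis, was on in 21, off in 55 and between in 10, and Ccnb1, cyclin B1, on in 19, off in 54 and between in 13. Mcm4, a subunit of the replication helicase, was on in 26, off in 47 and between in 13, and Spc25, a kinetochore protein gene, on in 22 and off in 48.

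The other switched genes had varied roles. Ss18, a subunit gene of the BAF chromatin remodelling complex, was on in most cells (56 on, 20 off, 10 between). Anp32e, a chaperone gene of histone H2A.Z, and Mrpl51, of the mitochondrial ribosome, were each on in 55 cells and off in 18, and the ER-shaping gene Reep3 was on in 53 and off in 18. Ifrd1 was on in 50 and off in 20. Lpl, which encodes lipoprotein lipase, divided the cells evenly, with 34 on, 36 off and 16 between, and reached 13982 CPM in its highest cell against a median of 1.3 CPM. Egr1, an immediate early transcription factor gene, was on in 43, off in 27 and between in 16, with a median of 474 thinned counts where it was on. Ppp1r3c, which directs a phosphatase to glycogen, was on in 18 and off in 56, and Pcp4, a calmodulin regulator gene, on in 19 and off in 52. The signalling adaptor gene Traf3 (47 on, 23 off), Nkap (30 on, 40 off), Trim24 (38 on, 31 off), Endod1 (43 on, 26 off) and Dcbld2 (44 on, 25 off) were also among the genes with the fewest cells between.

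**Figure D3:**
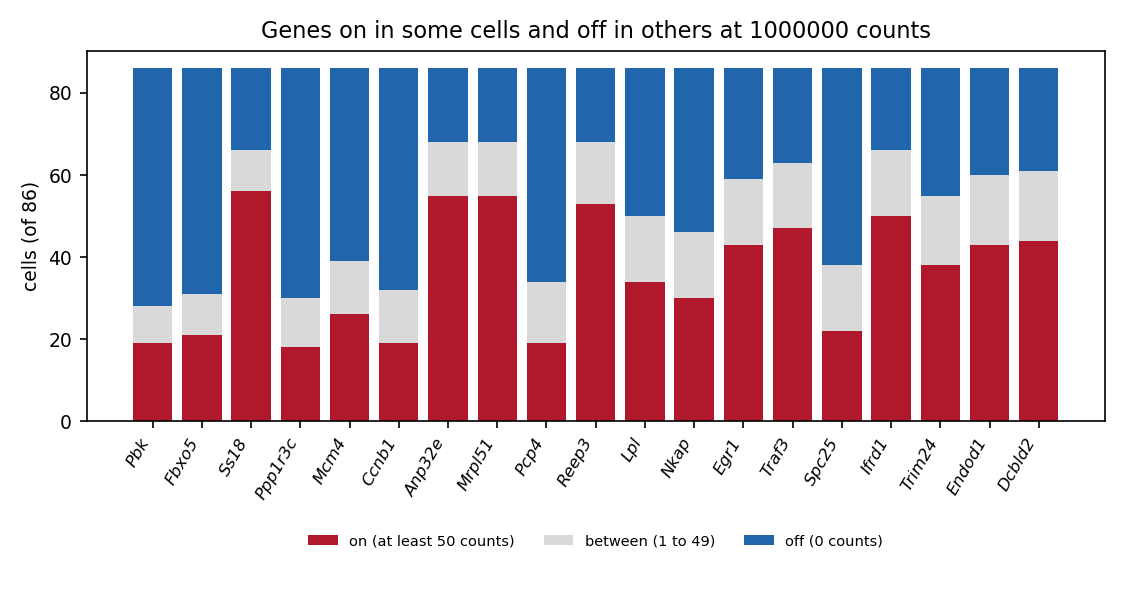
Number of the 86 cells in which each of 19 genes was on (at least 50 thinned counts, red), between (1 to 49, grey) or off (0, blue), ordered by the number of cells between. Pbk and Fbxo5 have 9 and 10 cells between, and Ss18 is on in 56 cells.

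Which genes met this rule depended on the thresholds and on the draw. With another random draw 33 genes met it, 16 of them also in the first draw, among them Pbk, Fbxo5, Ccnb1, Spc25, Ss18, Lpl, Egr1, Nkap, Trim24 and Pcp4, but not Ppp1r3c, Mcm4, Anp32e, Mrpl51, Reep3, Traf3, Ifrd1, Endod1 or Dcbld2. With 100 counts as the limit for on, and in whole libraries with 50 CPM as that limit, no gene met it, and with 20 counts 686 did. The genes just inside the rule, with 17 cells between, included Trim24 and Dcbld2. The 17 named genes just outside it, with 18, included Anln, Cdca3 and Gmnn of the cell cycle, the endothelin receptor gene Ednrb and Prom1. Zeros in the thinned counts were in part zeros of the whole library. Pbk had no count in the whole library in 47 cells, Fbxo5 in 41, Pcp4 in 38 and Ccnb1 in 37, but Lpl in 20, Egr1 in 9 and Ss18 in 7.

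Genes that vary together between cells were sought among 6311 genes detected in 20 to 95% of cells with a mean of at least 20 thinned counts, by Spearman's rho of log2(thinned count + 1) over the 86 cells. The 86 values of a gene share their libraries, and cells with more genes detected had higher counts of most of these genes, so rho is given also with the number of genes detected per cell held constant (partial rho). Over all 19911205 pairs the median rho was 0.183 and the median partial rho 0.0014. At least 0.6 was reached by rho in 1346 pairs and by partial rho in 305. Joining genes by average linkage at a mean rho of 0.5 gave 4 groups of at least 8 genes. These groups were formed from the values that describe them, so their rho is a description and supports nothing.

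The largest group held 50 genes, 3 of them with predicted names, and was made up largely of genes of mitosis and of the cell cycle. Its pairs had a median rho of 0.56 (partial rho 0.52, and 0.54 within the 70 cells of 12 days) and made up 393 of the 1346 pairs above. The 6 named genes with the highest mean rho to the others were Ckap2l, of the mitotic spindle (0.645), Ube2c, the ubiquitin-conjugating enzyme that acts on cyclins (0.629), the spindle checkpoint kinase Bub1 (0.619), Birc5, known as survivin (0.611), the cyclin-dependent kinase Cdk1 (0.611), and Spc24, of the kinetochore (0.607). Most cells had few counts of these genes. Ube2c was detected in 26 of 86 cells (20.8 to 41.1%), with a median of 96 thinned counts there and 0 counts in 53 cells. Mki67, the common marker of proliferating cells (chromosome 7, 135689784 to 135716361 in GRCm38), was detected in 26 cells, and the topoisomerase gene Top2a in 38. All 10 pairs with the highest rho among the pairs searched lay in this group, led by Ckap2l and Nuf2, of the kinetochore, at 0.82, which were detected together in 16 cells, Ckap2l alone in 5, Nuf2 alone in 2 and neither in 63. Ckap2l and Ube2c had a rho of 0.77 and Kif4 and Ube2c one of 0.76.

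A group of 8 genes held the machinery of DNA replication. It comprised Mcm2, Mcm3, Mcm5 and Mcm6 of the replicative helicase, the DNA ligase gene Lig1, the thymidylate synthase gene Tyms, and the centromere genes Cenpk and Cenph. Its median rho was 0.60 (partial 0.56). Mcm6 was detected in 46 cells and reached 9493 CPM in the highest, and the others were detected in 18 to 26 cells. Between this group and the mitotic group the median rho was 0.49 (partial 0.43), the highest between any pair of the 4 groups. The next highest, 0.36, had a partial rho of 0.0565.

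Counted per cell, the 24 genes listed for the G2 and M phases split the astrocytes. At least 17 of them were detected in 17 of 86 cells (19.8%, 12.0 to 29.8%), 14 to 16 in none, and at most 13 in 69 cells, of which 56 had at most 5 and 15 had none. The limit of 17 was chosen after the counts were seen. Of the 17 cells, 11 were among the 70 cells of 12 days, 4 among the 8 of 15 days, 2 among the 3 of 7 days and 0 among the 5 of 14 days. At least 15 of the 20 genes listed for S phase were detected in 13 cells, 10 of them among the 17 and 3 with at most 13 G2 and M genes. Pcna, the replication clamp, was detected in 74 of 86 cells, well beyond the cells with many S-phase genes, whereas Cdc45 was in 11. Of the G2 and M genes, Ckap2 was in 46 cells, Cdk1 in 39 and Top2a in 38, and Aurka in 14 and Bub1b in 9. With at least 1 count as the limit of detection 20 cells held 17 or more of the 24 genes, with at least 10 counts 15 cells, and without the 6 cells with microglial genes 15 cells.

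**Figure D4:**
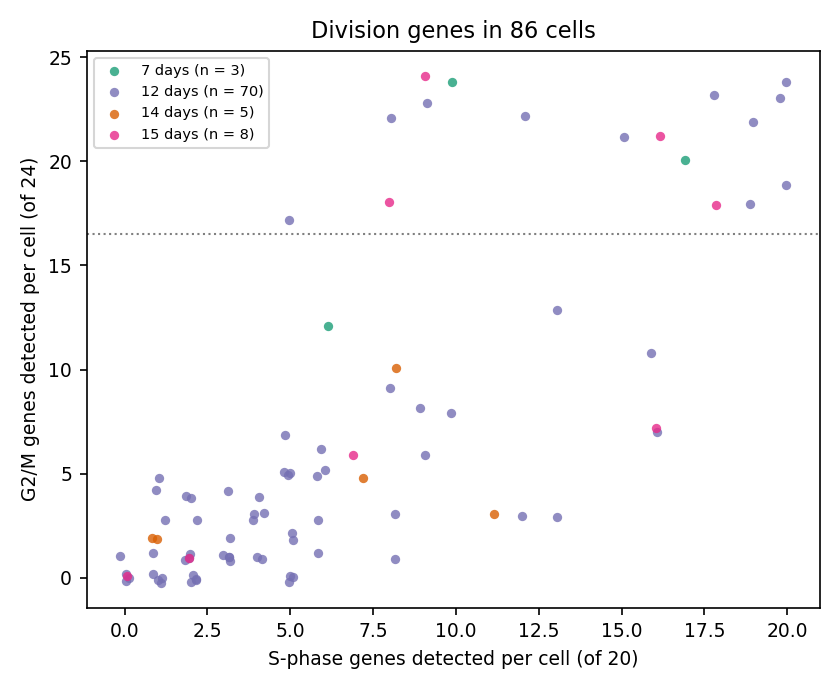
Number of the 20 S-phase genes (horizontal axis) and of the 24 G2 and M genes (vertical axis) detected in each of the 86 cells, coloured by days in culture and moved slightly at random to separate points. The 17 cells above the dotted line have at least 17 G2 and M genes, and no cell has 14 to 16.

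The promoters of these genes are shown because the members moved together, and because letters of known cell cycle elements stand in many of them. Sequences are from RefSeq on GRCm38.p6, from 250 bases before each gene's start, searched to 50 bases after it. The letters searched on both strands were TTTGAA (the cell cycle genes homology region, CHR), CCAAT (the CCAAT box), and TTTGGCGC or TTTCCCGC (sites of the E2F factors). Of the 50 genes of the mitotic group, 38 had a promoter in the table. TTTGAA stood in 22 of them (57.9%), against 20.2% of all 27025 genes of the table and 13.5% of the genes entered in the search for pairs. CCAAT stood in 28 (73.7%), against 41.1% and 43.9%. It was not particular to the mitotic group. Among genes with a promoter in the table, CCAAT stood in 6 of 8 replication genes and 11 of 16 genes listed for S phase. It also stood in 6 of 9 genes of the group of Kcnj10 and 14 of 14 genes of cholesterol synthesis, both described below. An E2F site stood in 3 of the 38 mitotic promoters (7.9%). Of the 8 replication genes, 3 held an E2F site (37.5%) against 1.8% of all genes and 3.7% of the genes searched, but 1 held TTTGAA. A match describes letters in the window and shows neither binding nor a cause. In the promoters of Ube2c (chr2:164769679-164769956, plus strand) and Ccnb2 (chr9:70421527-70421804, minus strand) capitals mark TTTGAA and CCAAT on either strand, and in those of Mcm6 (chr1:128359678-128359955, minus strand) and Mcm5 (chr8:75109259-75109536, plus strand) they mark the E2F sites. Each sequence ends 28 bases after the start.
Ube2c: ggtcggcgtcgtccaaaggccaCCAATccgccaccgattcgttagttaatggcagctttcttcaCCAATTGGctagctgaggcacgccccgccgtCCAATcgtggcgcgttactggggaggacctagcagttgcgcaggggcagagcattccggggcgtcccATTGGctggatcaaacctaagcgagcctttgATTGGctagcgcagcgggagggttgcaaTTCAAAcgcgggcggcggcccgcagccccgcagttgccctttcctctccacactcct
Ccnb2: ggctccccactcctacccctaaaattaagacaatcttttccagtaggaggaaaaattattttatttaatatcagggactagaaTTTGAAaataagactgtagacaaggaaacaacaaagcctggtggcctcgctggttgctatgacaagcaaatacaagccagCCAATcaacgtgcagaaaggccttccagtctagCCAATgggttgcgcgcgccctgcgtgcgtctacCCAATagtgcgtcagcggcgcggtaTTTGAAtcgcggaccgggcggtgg
Mcm6: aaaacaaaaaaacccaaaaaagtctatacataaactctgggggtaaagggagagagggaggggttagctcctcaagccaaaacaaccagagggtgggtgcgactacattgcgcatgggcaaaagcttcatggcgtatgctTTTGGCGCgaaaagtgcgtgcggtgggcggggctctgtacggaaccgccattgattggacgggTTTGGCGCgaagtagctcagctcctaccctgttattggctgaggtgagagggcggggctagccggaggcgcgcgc
Mcm5: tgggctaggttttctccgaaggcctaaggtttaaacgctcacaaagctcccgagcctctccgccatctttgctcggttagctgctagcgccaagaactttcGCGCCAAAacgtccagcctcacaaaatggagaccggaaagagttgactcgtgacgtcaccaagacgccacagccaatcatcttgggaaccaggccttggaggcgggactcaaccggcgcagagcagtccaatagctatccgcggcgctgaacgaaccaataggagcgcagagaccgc

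The promoter of Ube2c held 1 match of TTTGAA, on the strand opposite to the gene, and 6 of CCAAT, while that of Ccnb2 held 2 and 3. Mcm6 held 2 E2F sites and Mcm5 held 1. Beside these sequences, Ube2c was detected in 26 cells and Ccnb2 in 23, with median thinned counts of 96 and 170 where detected. Mcm6 was detected in 46 cells with a median of 100.5, and Mcm5 in 18 with 68.5.

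A separate group of 10 genes held 4 of the 20 genes listed for mature astrocytes (Kcnj10, Gfap, Slc1a2 and Atp1b2) and 1 listed for immature glia (Hopx). It was led by Kcnj10, the potassium channel gene through which astrocytes buffer potassium (chromosome 1, 172341210 to 172374085 in GRCm38), with a mean rho of 0.619 to the other members, followed by Mmd2 (0.584), Gfap (0.573), Plekhb1 (0.564), Ndrg2 (0.564) and the glutamate transporter gene Slc1a2 (0.543). Atp1b2, a subunit gene of the astrocyte sodium pump, Ppp1r3c, Hopx and Prickle2 complete it. The median rho was 0.57 (partial 0.42, and 0.56 within the cells of 12 days). Slc1a2 lay at 0, 8.2 and 3049 CPM in the lowest, median and highest cell, and Kcnj10 at 0, 3.56 and 1573 CPM. No gene of the group was detected in 13 cells, at most 2 were in 37, 3 to 7 in 31, and at least 8 in 18, so that every number of genes from none to all 10 occurred. Gfap and Kcnj10 were detected together in 31 cells, Gfap alone in 11, Kcnj10 alone in 10 and neither in 34. Among the pairs searched, Kcnj10 and Plekhb1 had the highest rho outside the division genes, 0.74 (partial 0.60). Between this group and the mitotic group the median rho was 0.19, close to the median of all pairs, and the partial rho was 0.0215.

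The 8 markers did not move as a unit. Over their 28 pairs the median rho was 0.25, from -0.27 for Vim and Id3 to 0.56 for Aqp4 and Gfap. Gja1 and Aqp4 had a rho of 0.48 and Slc1a3 and Mlc1 one of 0.47, but Slc1a3 and Gfap had 0.24 and Slc1a3 and Sox9 had 0.20. Id3, a target of bone morphogenetic protein signals, had a rho of 0.014 with Mlc1 and 0.0078 with Aqp4, but 0.25 with Gfap (partial 0.28). Aqp4 followed the number of genes detected per cell (rho 0.56) more than Slc1a3 (0.22) or Id3 (-0.039) did.

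**Figure D5:**
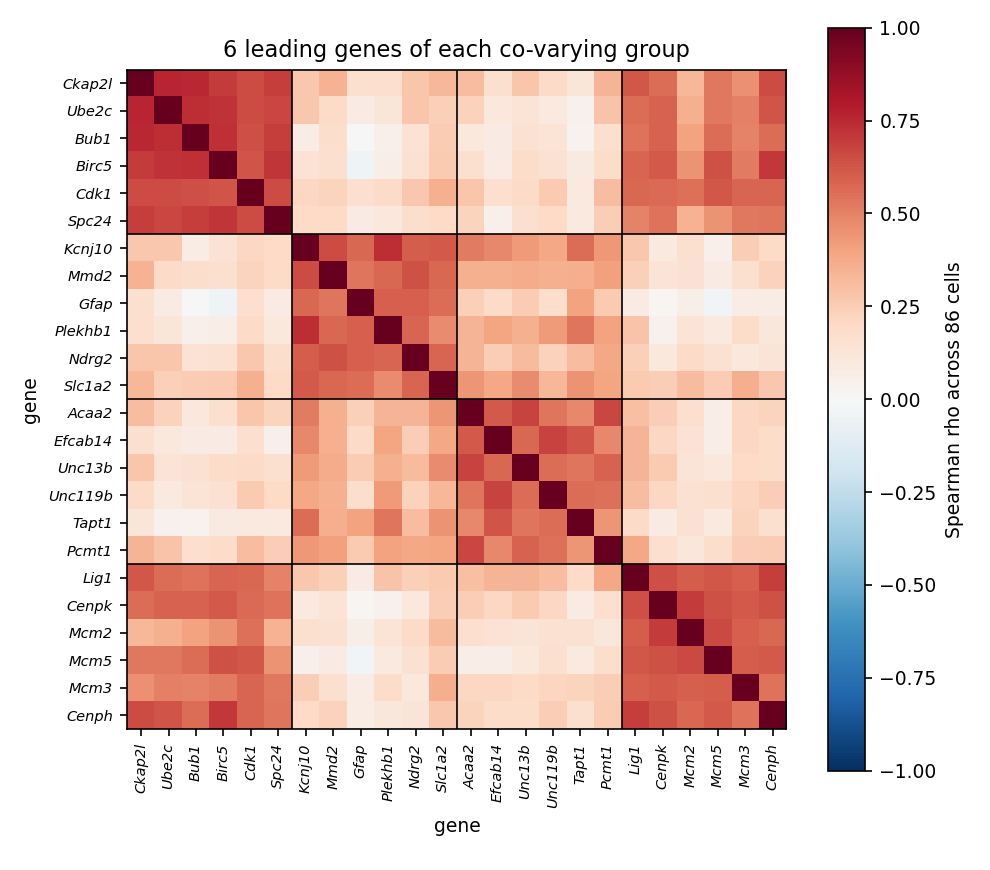
Spearman's rho across 86 cells between the 6 leading genes of each of the 4 groups that vary together, from Ckap2l (mitosis), Kcnj10 (the group with Gfap), Acaa2 and Lig1 (replication). The mitotic and replication genes are also tied to each other (median rho 0.49 between the groups), and the median between the group of Kcnj10 and the mitotic group is 0.19.

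The last group, of 8 genes, followed the number of genes detected. It held Acaa2, of fatty acid oxidation, Efcab14, Unc13b, Unc119b, Tapt1, Pcmt1, a protein repair enzyme gene, Nadkd1, a mitochondrial NAD kinase gene, and Arl6. Its median rho of 0.54 dropped to a partial rho of 0.20. The mean of its genes had a rho of 0.82 with the number of genes detected per cell. For the group of Kcnj10 that rho was 0.64, for the mitotic group 0.56 and for the replication group 0.47. A value near 0.82 was not particular to this group. Among the lists below, the mean of the immature glia and of the lysosomal genes had 0.80 and that of the p53 targets 0.79. The mean of the ribosomal list had 0.17. Between the group of Acaa2 and that of Kcnj10 the median rho was 0.36 (partial 0.0565). Depth was equal in all cells here, and what part the yield of amplification had in the number of genes was not tested.

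Lists of genes of known function gave the same measure for pathways. Over all 10376 genes detected in at least 10% of cells the median rho was 0.16 and the median partial rho 0.00019. The 44 S, G2 and M genes stood at 0.47 (partial 0.42), the G2 and M genes alone at 0.58.

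The 21 genes of cholesterol synthesis had a median rho of 0.36 (partial 0.27, and 0.38 within the cells of 12 days). Sc4mol, a sterol methyl oxidase gene, was detected in 80 of 86 cells, and Hmgcs1 and the squalene epoxidase gene Sqle in 76 each, while Dhcr7 was in 28 and Idi1 in 12. Sqle lay at 0, 277 and 3166 CPM in the lowest, median and highest cell. Cyp51 and Sc4mol had a rho of 0.63 (partial 0.58). A cell had between 3 and 21 of the 21 genes, with a median of 14.

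Ribosomal genes were detected in nearly every cell, and the mean of the list had a rho of 0.17 with the number of genes detected. The list of 25 also holds Eef1a1, which encodes an elongation factor and not a ribosomal protein. All 25 genes were detected in at least 90% of cells, against 2.52% of all rows with a count. Eef1a1 and Rplp1 were in all 86, Rpl10 in 82 and Rps6 in 81. Their median rho was 0.39 and the partial rho also 0.39. Rplp0 and Rplp1 had a rho of 0.67. The value moved with the scaling, to a median rho of 0.60 after division by DESeq2 size factors and to 0.53 as Pearson's r. Many of these genes have near-identical processed copies in the genome, so their levels are uncertain.

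Contractile genes were widespread. Of 19 contractile genes 14 were detected in at least 90% of cells, against 2.52% of all rows with a count. Actb and Tpm1 were in all 86 cells, and the smooth muscle actin gene Acta2 was in 85, at 3.85, 672 and 13114 CPM in the lowest, median and highest cell. Cnn1, calponin 1, was in 37, Zyx in 35 and Lmod1 in 24. Fn1, fibronectin, was in 81 of 86 cells at a median of 1505 CPM, Ctgf in 85 at 1158 CPM, and of the other matrix genes Thbs2 was in 20, Lamb1 in 18 and Postn in 1. The contractile list had a median rho of 0.21 (partial 0.20), the matrix list one of 0.19 (partial 0.11), and both together one of 0.14 (partial 0.10), against 0.16 (partial 0.00019) over all genes. Single pairs were much higher, with Tpm1 and Cnn2 at 0.73, Acta2 and Tagln at 0.70, Tagln and Myl9 at 0.67, and Fn1 and the laminin gene Lamc1 at 0.70. Acta2 and Tagln kept a partial rho of 0.71.

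Genes reported in reactive astrocytes differed widely in how many cells held them. Beside Vim, Tm4sf1 was detected in 75 cells, S100a10 in 73 and the hyaluronan receptor gene Cd44 in 72, whereas Serpina3n was in 16, Lcn2 and the complement gene C3 in 3 each, and Steap4 in 1. The median rho of the 20 members in the filter was 0.15 (partial 0.058). The highest pair was Osmr, a cytokine receptor gene, and Cd109 at 0.45. The 18 mature astrocyte genes in the filter stood at 0.35 (partial 0.22). Glul, glutamine synthetase, and Aldoc, an aldolase of astrocytes, had the highest rho of that list, 0.68 (partial 0.63). Apoe was detected in 83 cells and Glul in 81, but the neurotensin receptor gene Ntsr2 in 3 and the connexin gene Gjb6 in 0 of 86 cells, which allows a share of up to 3.49%.

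Of 19 genes listed for immature glia, 16 were detected in at least 50% of cells and 4 in at least 90%. Of the 20 mature astrocyte genes 14 and 4 were, and of all 21282 rows with a count 22.2% and 2.52%. The difference between the lists was not tested. Dbi, an acyl-CoA binding protein gene, was in all 86 cells, Lhx2 in 78, Sox2 in 75, the intermediate filament gene Nes in 74 and Fabp7 in 68, with Hopx in 33 and Hes5 in none. Fabp7, a fatty acid binding protein gene of radial glia, lay at 0, 432 and 10756 CPM in the lowest, median and highest cell, and its rho with Dbi was 0.59. As a list they had a median rho of 0.16 (partial 0.055), against 0.16 (partial 0.00019) over all genes.

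Metallothioneins bind zinc and copper, and their genes respond to metals and glucocorticoids. Of the 3 listed, Mt3 was detected in 3 cells, and Mt1 and Mt2 were tied closely to each other. Mt2 was detected in 83 cells, at 0, 291 and 4197 CPM in the lowest, median and highest cell, and Mt1 in 78, at 0, 80.5 and 2509 CPM. They were detected together in 78 cells, Mt2 alone in 5 and neither in 3, and rho was 0.73 (partial 0.72, and 0.70 within the cells of 12 days). The genes neighbour each other on chromosome 8 in GRCm38, Mt2 at 94172664 to 94173568 and Mt1 at 94179082 to 94180327. Their promoters in RefSeq (GRCm38.p6) are shown because both carry the core letters of the metal response element, TGCGCNC or TGCACNC on either strand, in capitals, which stood in the promoters of 28.2% of all genes and 42.7% of the genes entered in the search for pairs. The letters stood in the promoters of all 3 metallothionein genes listed, that of Mt3 too, so they do not set Mt1 and Mt2 apart. Mt1 (chr8:94178839-94179116, plus strand) held 3 such matches and Mt2 (chr8:94172368-94172645, plus strand) held 4.
Mt1: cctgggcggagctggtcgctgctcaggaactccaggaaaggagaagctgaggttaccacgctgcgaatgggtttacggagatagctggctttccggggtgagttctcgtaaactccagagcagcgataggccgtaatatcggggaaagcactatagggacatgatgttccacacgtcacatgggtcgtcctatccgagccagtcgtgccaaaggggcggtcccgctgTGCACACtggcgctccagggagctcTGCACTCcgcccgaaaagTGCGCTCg
Mt2: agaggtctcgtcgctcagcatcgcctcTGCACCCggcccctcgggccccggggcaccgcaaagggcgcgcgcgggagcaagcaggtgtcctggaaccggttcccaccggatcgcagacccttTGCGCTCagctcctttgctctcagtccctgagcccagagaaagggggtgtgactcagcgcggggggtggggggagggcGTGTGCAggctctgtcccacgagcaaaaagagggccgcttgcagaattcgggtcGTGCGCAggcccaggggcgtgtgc

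The metallothionein pair was tied to the mature astrocyte genes with a median rho of 0.36 between the lists (partial 0.34), the highest partial value between any pair of lists after that of the S-phase with the G2 and M genes (0.37). Matrix genes and ribosomal genes had the lowest partial rho between lists, -0.12 (rho -0.094).

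Among stress and signalling genes, detection differed from gene to gene within each list. Of the immediate early genes, Cyr61 and Klf6 were detected in 82 cells each and Dusp1 in 69, and Fos in 46, with Fosb in 7 and Arc in none. Fos and Egr1 had a rho of 0.58 (partial 0.52) and were detected together in 36 cells, while the list had 0.19 (partial 0.14). Of the interferon genes, B2m was in 83 cells, Isg15 was in 8 and Irf7 in 4, with a list rho of 0.21 (partial 0.07). Of 14 targets of p53, 11 were in at least 50% of cells, against 22.2% of all rows with a count. Ccng1 was in 81 cells, Cdkn1a in 76 and Mdm2 in 73, but Bbc3 in 36 and Gdf15 in 5, with a list rho of 0.23 (partial 0.084). The lysosomal genes stood at 0.34 (partial 0.16) and the 24 nuclear-encoded respiratory chain genes at 0.29 (partial 0.20). Of these 24 genes 12 were in at least 90% of cells, against 2.52% of all rows with a count. Genes of the mitochondrial genome are not analysed here. The heat shock list had 0.10 (partial 0.029), although Hspa8 was detected in all 86 cells and Cryab, a small heat shock protein gene, in 85.

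The lowest rho of the pairs searched was between Xist and the Y-linked helicase gene Ddx3y, -0.53 (partial -0.56), genes that mark female and male cells. Ddx3y was detected alone in 44 cells, Xist alone in 23, both in 5 and neither in 14. Ddx3y and Eif2s3y, another Y-linked gene, had a rho of 0.48, with both in 35 cells. Xist and its antisense partner Tsix had a rho of 0.63, but their reads cannot be told apart where the counting did not use the strand, which is not given in the sources used here.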

How the data were processed

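The authors aligned reads with STAR and counted them per gene with HTSeq, against mm10 (GRCm38), per the submitters' processing notes. Basecalling of all 86 libraries used bcl2fastq2 2.17, and libraries were made with the TruSeq Stranded kit from polyA RNA, per the labels. For STAR and HTSeq the versions, annotation and strand setting: not given in the sources used here. Raw, unnormalized counts for 21956 gene rows form the deposited table. Cells were thinned without replacement to 1000000 counts (seed 7, numpy 2.4.6), which all 86 cells reached. Spearman's rho was computed with scipy 1.17.1. Alternatives used edgeR 4.0.16 TMM factors and DESeq2 1.42.0 size factors (R 4.3.3), with no test. Promoters came from RefSeq on GRCm38.p6. Lengths came from GENCODE vM21, which matched 21541 rows. The scripts were tested on simulated data. The members, lists and thresholds were chosen with earlier results of these data known. Named genes were the 8 markers, the 15 of highest median CPM, 10 of those in every cell, 20 switched genes, 6 per co-varying group, the 10 highest pairs, and the members of each list in most (3) and fewest (2) cells. Predicted names were passed over. Genes of widest and narrowest spread, the pairs outside division, other members of the lists and the cells given by number were added after seeing the values. A few genes that the rule names are not reported here.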

Additional observations from a re-analysis of the deposited data

Results flagged for a closer look

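In the 8 cells of 15 days in culture, the thinned count of Slc1a3 in cell 17 was 3, against 131 to 2571 (median 567) in the other 7 cells. On the log2 scale its gap to the nearest cell was 0.541 of the whole range, above Dixon's 95% critical value for 8 values. Chance flags about 1 in 20 groups, and 22 groups of values (11 measures in the cells of 14 and of 15 days) were examined, of which this was the sole flag. The same cell held 4134 counts of Cx3cr1, a microglial gene.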

How the results depend on the processing

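No paired analysis was possible because cell numbers follow the accession order and no comparison between groups was tested. Of 96 alternative values, 78 stayed within 1 SD of the cells or pairs, or within 1.5 times the count, and 18 moved further. Of them 0 changed sign, which was possible for the rho values but not for the counts. The number of genes detected in every cell (41) was 158 with at least 1 count, 86 at 2000000 counts (84 cells), 120 without the 9 cells of fewest genes and 106 without the 4 cells under 2000 genes (added after seeing the data). The number of genes on in some cells and off in others (29) was 686 with on at 20 counts, 0 at 100 counts, 200 with off at up to 1 count, 4 at 500000 counts, 0 in whole libraries and 66 in the cells of 12 days, where the shares rest on 70 cells. The number of gene pairs with rho of at least 0.6 (1346) was 449 with edgeR TMM factors, 345 with DESeq2 size factors, 3374 with Pearson's r, 305 for partial rho, 3855 in the cells of 12 days and 2732 with a looser filter on low counts. The ribosomal median rho (0.39) was 0.60 with DESeq2 size factors and 0.53 with Pearson's r. The cause was not tested in these cases. The alternatives without the 6 cells with microglial genes, and those for the number of cells with many G2 and M genes, were chosen after seeing the data. The depth of 1000000 counts sets what 0 counts mean, so off is not absence.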

Other observations

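Some genes detected in under 10% of cells owed their level to a single cell. C3ar1, a complement receptor gene, was at 7660 CPM in cell 86, which held 87.6% of its counts. Tfpi, a coagulation inhibitor gene, was at 3035 CPM in cell 63, with 97.0% of its counts. P2ry12, a microglial receptor gene, was at 3567 CPM in cell 69, with 96.4% of its counts and 49.7 CPM in the next cell, although cell 69 was not among the 6 cells with at least 5 microglial genes. Slco1a6 was at 1642 CPM in cell 19, with 97.1% of its counts.

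Of 21 clustered protocadherin beta genes, which neurons are known to express in cell-specific combinations, 17 were detected in under 10% of cells, as were 51.2% of all rows with a count. Pcdhb18 was detected in 13 cells, Pcdhb20 in 11 and Pcdhb19 in 10, and a cell had at most 5 of the 21. Eno1, the glycolytic enolase, was detected in 0 of 86 cells and had 74 counts in all of them together. It has a near-identical copy in the genome, so its value is uncertain, and so is that of Gapdh, at a median of 13.6 CPM.

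No 2 cells were alike enough to be a library deposited again, with r of log2 counts between cells of at most 0.872 and a median of 0.559. Cells of 7, 14 and 15 days number 3, 5 and 8, so the ages were not compared.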
